A study of Mus musculus with 26 samples.

Results

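The 10 genes of sugar and threonine use described here were followed through 3 mouse cell types, with 2 histone marks at their promoters and their RNA. They are Tdh, Gcat and Shmt2 of threonine, glycine and serine metabolism, the glucose transporter genes Slc2a1 and Slc2a3, the hexokinase genes Hk1 and Hk2, the phosphofructokinase gene Pfkp, the pyruvate kinase gene Pkm (Pkm2 on the promoter arrays) and the lactate dehydrogenase gene Ldha. They were listed by name, with earlier results of these data known, so counts over the 10 are descriptions. All 10 were among the 17173 genes tested on the expression arrays, and 9 were among the 15117 promoters tested on the promoter arrays, where no promoter probe carried the name Hk1. Among the 26 mouse samples, 20 are promoter arrays on which DNA precipitated with an antibody to a histone mark (Cy5) competed with input DNA (Cy3), and 6 are one-colour expression arrays.

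Each mark was measured in E14 and V6.5, a pair of embryonic stem (ES) cell lines, in the mouse embryonic fibroblast (MEF) lines MEF1, described as male, and MEF2, described as female, and in 1 line of induced pluripotent stem (iPS) cells. RNA was measured on 2 arrays each for V6.5 ES cells grown on feeders, MEFs from females and the iPS cells. ES lines come from early embryos, MEFs are cultured connective tissue cells, and iPS cells are somatic cells returned to an ES-like state. The labels name no treatment and no reprogramming method. Each line was 1 replicate per mark, and the labels do not state whether the second expression array of a group, called a duplicate, was a separate culture, so the RNA tests measure the spread between arrays only, which may be technical. The series design sets iPS cells against ES cells and MEFs in both kinds of measurement.

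Glycolysis takes up glucose through membrane transporters, traps it with hexokinases and breaks it down to pyruvate, which lactate dehydrogenase turns into lactate. Threonine dehydrogenase (Tdh) and the ligase encoded by Gcat split threonine into glycine and acetyl-CoA in mitochondria, and mouse ES cells are known to depend on this route. H3K4me3, trimethylation of a lysine of histone H3, marks active and poised promoters, and H3K27me3, the same change on another lysine, is deposited by Polycomb proteins at silent ones.

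RNA is given as log2 of the processed signal relative to the 75th percentile of the array, and a mark as the mean log2 ratio of precipitate over input across the probes within 1000 bp of the start. Levels are compared between samples for 1 gene, not between genes. The groups carried their known markers. The 8 ES markers summed to 298 to 384 times the 75th percentile in ES cells, 275 to 284 in iPS cells and 1.33 to 2.38 in MEFs, and the 10 fibroblast markers to 566 to 1100 in MEFs, 64.3 to 81.2 in ES cells and 18.8 to 21.4 in iPS cells. The 8 macrophage and blood markers summed to 62.7 to 108 in MEFs, 3.48 to 3.86 in ES cells and 2.72 to 2.83 in iPS cells, and their part in the MEF differences was not tested. The second MEF array stood apart: 86.65% of its probes were well above background against 45.98% on the first, and the pair correlated at 0.869 over genes, where the ES pair reached 0.973 and the iPS pair 0.994. The scanner files filed under ES cells hold the MEF values of the deposited value table and the reverse. The value table was followed, in which Pou5f1, the core factor of pluripotent cells, read 4.89 and 4.58 in ES cells and -4.64 and -0.63 in MEFs. Taken as filed, every RNA difference of MEFs from ES cells given here changes sign. That fit also lacks the second iPS array, whose scan is incomplete, and with both changes it called 0 of the 10 genes between iPS cells and MEFs.

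In MEFs, 8 of the 10 genes had less RNA than in ES cells and none had more (limma, at least 2-fold with a p under 0.05 after Benjamini-Hochberg adjustment over 17173 genes). Over all genes tested, 17.9% were called lower and 15.9% higher (33.8% either way). The median difference of the 10 genes was -2.46 on the log2 scale, and that of all genes was -0.12. Tdh and Slc2a3 stood at the far end, followed by Hk2, while Hk1 and Ldha passed no threshold. Without the filter on dim probes Gcat, Shmt2 and Pkm missed the threshold. When the first or the second ES array was left out, 4 calls remained, and Gcat, Shmt2, Slc2a1 and Pkm missed the threshold. From RNA alone, fewer cells that hold a transcript and less of it per cell cannot be told apart.

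**Figure D1:**
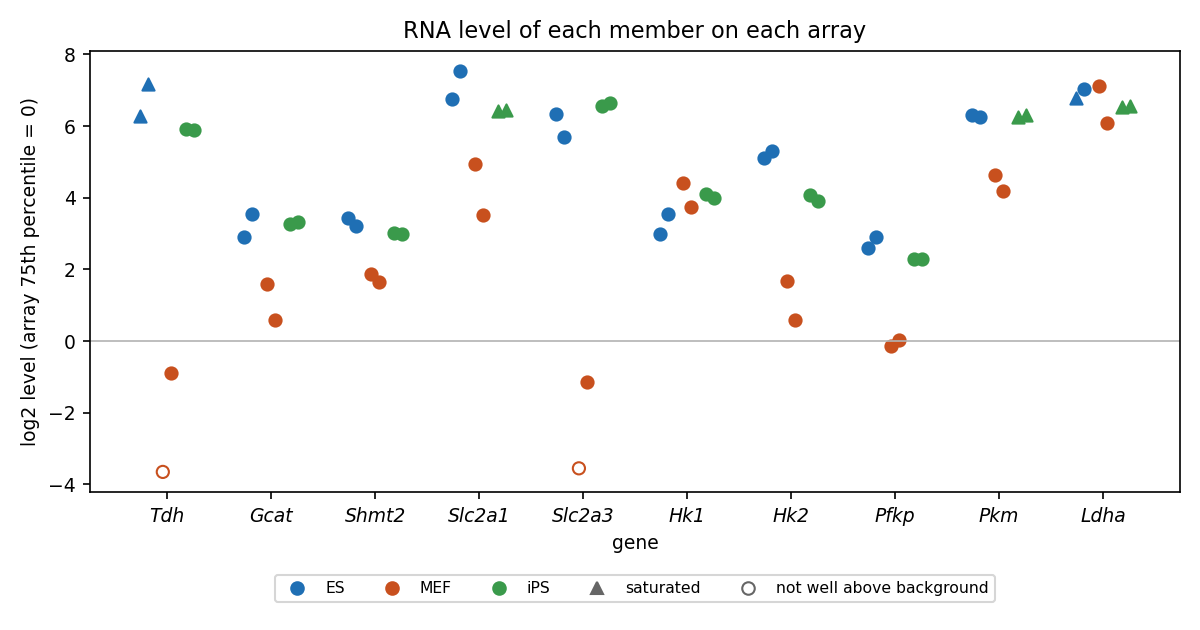
RNA level of the 10 genes on each of the 6 expression arrays, as log2 relative to the 75th percentile of the array, with ES, MEF and iPS arrays side by side in blue, orange and green. Triangles are saturated readings and open circles are readings not well above background. For Tdh and Slc2a3 the ES and iPS arrays lie between 5.68 and 7.16 and the MEF arrays between -3.65 and -0.90.

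Tdh, the enzyme that opens threonine breakdown, read 6.28 and 7.16 on the ES arrays, -3.65 and -0.90 on the MEF arrays, and 5.91 and 5.90 on the iPS arrays. The ES readings were saturated and the first MEF reading was not well above background. Both MEF arrays lay far below all others. Tdh was at least 512-fold lower in MEFs than in ES cells (log2 difference -9.00, SE 0.87, limma adjusted p = 0.000995) and 290-fold above MEFs in iPS cells (8.18, SE 0.87, adjusted p = 0.000891). The MEF pair differed widely (mean -2.28, SD 1.94, n = 2), so both folds are rough: without the first or the second MEF array the difference from ES cells was -7.63 or -10.37, and that of iPS cells from MEFs 6.81 or 9.55.

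Gcat, whose product completes the split of threonine, read 2.90 and 3.54 in ES cells, 1.60 and 0.58 in MEFs, and 3.26 and 3.32 in iPS cells. The MEF arrays lay below both other groups, and the iPS arrays lay within the range of the ES arrays. The gene was 4.38-fold lower in MEFs than in ES cells (adjusted p = 0.0182) and 4.58-fold above MEFs in iPS cells (adjusted p = 0.0155). Shmt2, the mitochondrial enzyme that interconverts serine and glycine, read 3.42 and 3.21 in ES cells, 1.87 and 1.64 in MEFs, and 3.02 and 3.0 in iPS cells. It was 2.95-fold lower in MEFs than in ES cells (adjusted p = 0.0226) and 2.39-fold above MEFs in iPS cells (adjusted p = 0.0448). The call of Shmt2 was the least firm of the 8: with quantile normalisation adjusted p was 0.0564 against ES cells and 0.0833 in iPS cells against MEFs. The latter call was also lost with the slide as a block (limma adjusted p = 0.0991). Without the filter on dim probes (0.0834) and without the ES arrays (0.069) it was lost too. The same held with normexp (difference 1.24), in a fit that also lacked the second iPS array. The former call was lost without the filter on dim probes (0.0851) and without the iPS arrays (0.113).

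The glucose transporters differed in the size of their change. Slc2a1 encodes GLUT1, the transporter of most cultured cells, and it stayed well above background in MEFs. Its levels were 6.75 and 7.54 in ES cells, 4.95 and 3.52 in MEFs, and 6.43 and 6.44, both saturated, in iPS cells. Slc2a1 was 7.54-fold lower in MEFs than in ES cells (adjusted p = 0.0103) and at least 4.60-fold above MEFs in iPS cells (adjusted p = 0.0265). Without the first or the second MEF array the Slc2a1 difference from ES cells was -3.63 or -2.2, and that of iPS cells from MEFs 2.92 or 1.49. Slc2a3 encodes GLUT3, a transporter of high affinity known from neurons and early embryos. It read 6.34 and 5.68 in ES cells, -3.55 and -1.15 in MEFs, and 6.56 and 6.64 in iPS cells, and the first MEF reading was not well above background. The fall in MEFs was 330-fold (-8.37, SE 0.776, adjusted p = 0.000902) and the rise in iPS cells over MEFs 496-fold (8.95, SE 0.776, adjusted p = 0.000511), with MEF arrays again far apart (mean -2.35, SD 1.70, n = 2). Without the first or the second MEF array these differences were -7.16 or -9.57, and 7.75 or 10.15. The second probe kept for Slc2a3, much dimmer, read -0.63 and -0.23 in ES cells and -5.10 and -3.03 in MEFs.

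The hexokinases, which phosphorylate glucose on entry, went separate ways. Hk2, the inducible form, read 5.12 and 5.31 in ES cells, 1.68 and 0.59 in MEFs, and 4.08 and 3.91 in iPS cells. The iPS arrays lay between the groups without touching either. Hk2 was 16.9-fold lower in MEFs than in ES cells (adjusted p = 0.00162) and 7.27-fold above MEFs in iPS cells (adjusted p = 0.00517). Hk1, the form of most adult tissues, read 2.99 and 3.54 in ES cells, 4.42 and 3.75 in MEFs, and 4.11 and 3.99 in iPS cells. Its difference of 0.82 between MEFs and ES cells did not pass (95% interval -0.24 to 1.89, adjusted p = 0.20). With quantile normalisation the difference was 1.31 and passed (adjusted p = 0.0202), and without the second MEF array it was 1.16 and passed (adjusted p = 0.0402). The other 5 Hk1 probes were dim, and their levels on the second MEF array lay between -0.56 and 0.60.

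Pfkp, the platelet form of phosphofructokinase at the committed step of glycolysis, read 2.59 and 2.90 in ES cells, -0.13 and 0.03 in MEFs, and 2.29 and 2.28 in iPS cells. It was 6.93-fold lower in MEFs than in ES cells (adjusted p = 0.00274) and 5.05-fold above MEFs in iPS cells (adjusted p = 0.00484). Of its other 2 probes, 1 ran the same way (2.17 and 2.81 in ES cells, -2.19 and -0.73 in MEFs, 1.73 and 1.18 in iPS cells). A dimmer one overlapped between ES cells and MEFs, and it read lower in iPS cells (-3.29 and -3.46) than in MEFs (-1.64 and -2.62). With the mean over the gene's probes, Pfkp in iPS cells stood 1.34 above MEFs on the log2 scale (limma adjusted p = 0.0458). Pkm, which makes pyruvate and ATP at the end of the pathway, read 6.32 and 6.24 in ES cells, 4.62 and 4.19 in MEFs, and 6.25 and 6.31, both saturated, in iPS cells. It was 3.66-fold lower in MEFs (adjusted p = 0.0128) and at least 3.67-fold above MEFs in iPS cells (adjusted p = 0.0119). When probes saturated on any array were left out, the remaining Pkm probe gave -1.75 in MEFs against ES cells and missed the threshold (adjusted p = 0.0528).

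Ldha, the muscle-type lactate dehydrogenase subunit, was bright in every group. It read 6.77 and 7.02 in ES cells, 7.12 and 6.09 in MEFs, and 6.53 and 6.56 in iPS cells, with saturation on the first ES array and on both iPS arrays. The MEF arrays overlapped each of the other groups, and the difference between MEFs and ES cells was -0.29 (95% interval -1.42 to 0.84, limma adjusted p = 0.671). An unsaturated second Ldha probe read 5.38 and 4.41 in ES cells, 4.90 and 4.16 in MEFs, and 5.52 and 5.79 in iPS cells.

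In iPS cells most of these genes had more RNA than in MEFs. Against MEFs, 8 of the 10 were called higher and 0 lower, all but Hk1 and Ldha. Gcat, Shmt2, Slc2a1 and Pkm missed the threshold without the filter on dim probes. When the first or the second iPS array was left out, 3 calls remained, those of Tdh, Slc2a3 and Hk2. Over all genes 18.3% were called higher and 17% lower (35.3% either way), and both comparisons share the MEF arrays. Against ES cells, limma called 0 of the 10 (0.192% of all genes, 0.116% higher and 0.0757% lower), with 1 at an unadjusted p under 0.05. That gene was Hk2, 2.33-fold lower in iPS cells (-1.22, SE 0.487, adjusted p = 0.299), and it passed when the MEF arrays were kept out of the fit (adjusted p = 0.0304), where 2852 of 17173 genes were called. The other intervals were wide, for instance -2.89 to 1.25 for Tdh and -1.26 to 2.44 for Slc2a3, and a missing call is no proof of equal levels. The iPS and ES arrays overlapped for Gcat and Pkm. For the other genes, a gap between groups of 2 arrays is no evidence of a difference. How many of all genes show such a gap was not counted. ES cells were the feeder-dependent culture, whose fibroblast markers are given above.

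The genes whose levels ran closest to Tdh and Slc2a3 over the 6 arrays were found by the Euclidean distance of centred log2 levels, whose median over 17173 genes was 10.1 for each. The Tdh probe was saturated on both ES arrays, and both probes were not well above background on the first MEF array, so the order of the nearest genes rests in part on readings that are bounds. For Tdh they were Gldc, the decarboxylase of the glycine cleavage system, at a distance of 1.31, Triml1 at 1.37 and the transcription factor gene Tfcp2l1 at 1.39. Gldc read 4.03 and 4.19 in ES cells, -5.37 and -2.27 in MEFs, and 3.50 and 3.31 in iPS cells. For Slc2a3 they were Zfp42 (Rex1), a marker of pluripotent cells, at 1.11, the proto-oncogene Mycn at 1.20 and Wfdc2 at 1.55. Zfp42 read 5.39 and 5.67 in ES cells, -4.96 and -1.46 in MEFs, and 6.09 and 5.95 in iPS cells.

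Most of the promoters carried H3K4me3 in all 3 cell types. H3K4me3 stood at a log2 ratio of at least 1 in both ES lines at 8 of 9 promoters, in both MEF lines at 7 and in the iPS line at 8, where 46.4%, 48.8% and 47.4% of all promoters reached that level. The promoter that lost it in MEFs was that of Tdh, and Gcat stayed below it in every line. H3K27me3 reached that level in both MEF lines at 1 of 9 promoters, Tdh, against 6.48% of all promoters, and in both ES lines or the iPS line at none (2.68% and 8.81%). The MEF H3K27me3 arrays have a labelling text that names Cy3 for the precipitate while their label field names Cy5. The label field was followed, and all pairs of H3K27me3 lines correlated positively over probes, between 0.617 and 0.913. Each ES and MEF line was scanned on a date of its own, so line and scan date cannot be told apart.

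**Figure D2:**
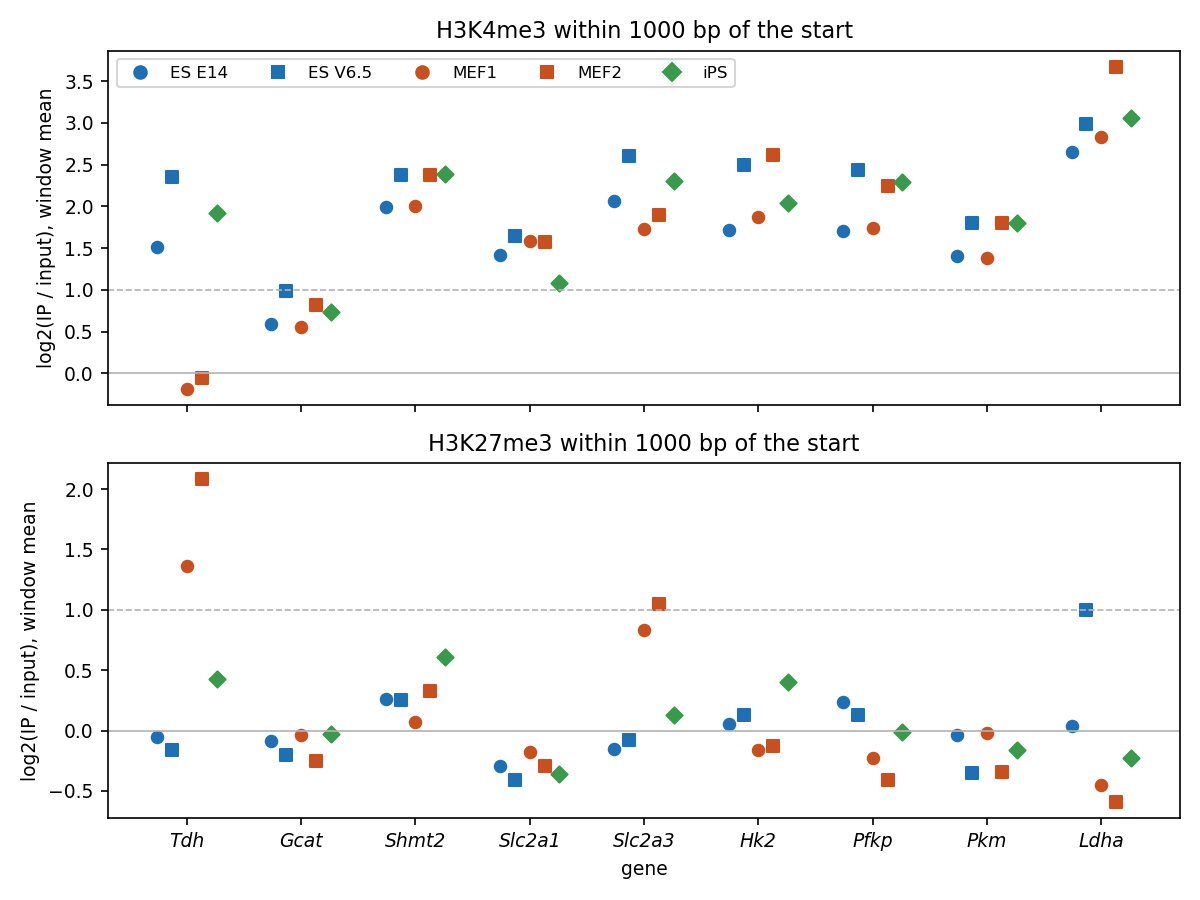
Mean log2 ratio of precipitate over input within 1000 bp of the start for the 9 promoters, H3K4me3 above and H3K27me3 below. Each point is 1 cell line, the solid line is 0 and the dashed line is 1. The MEF points of Tdh lie at -0.19 and -0.06 for H3K4me3 and at 1.36 and 2.08 for H3K27me3, apart from all other lines.

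Between MEFs and ES cells, limma called H3K4me3 lower at 1 of 9 promoters and higher at none, where 3.09% and 2.04% of all promoters were called (5.13% either way). It called H3K27me3 higher at 2 and lower at none, where 4.62% and 7.63% were called (12.3% either way). The median difference of the 9 promoters was -0.01 for H3K4me3 and 0 for H3K27me3, and over all promoters it was -0.03 and -0.04.

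The start of Tdh lies at chr14:58373073 on the minus strand in the coordinates of the arrays, for which no source used here names a genome build. Its 8 probes within 1000 bp averaged 1.51 (E14) and 2.35 (V6.5) for H3K4me3 in the ES lines, -0.19 (MEF1) and -0.06 (MEF2) in the MEF lines, and 1.92 in the iPS line. The MEF lines lay near 0, the level of the median probe of an array, and below all other lines. The loss was 2.05 on the log2 scale (limma difference -2.05, SE 0.281, adjusted p = 0.00299), and iPS cells stood 2.04 above MEFs (SE 0.344, adjusted p = 0.0294). The call for iPS cells ended with the median over probes (adjusted p = 0.13), with a window of 500 bp (adjusted p = 0.0937) and without MEF2 (adjusted p = 0.0559).

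H3K27me3 at Tdh ran the other way, at -0.05 (E14) and -0.16 (V6.5), 1.36 (MEF1) and 2.08 (MEF2), and 0.43 in the iPS line. The gain in MEFs was 1.83 (SE 0.251, limma adjusted p = 0.0254). Leaving out V6.5, MEF1 or MEF2 left differences of 1.77, 2.18 and 1.47 with adjusted p = 0.06, 0.0588 and 0.146, and each of these fits called 0 of the 15117 promoters. The iPS line lay between the groups, 1.29 below MEFs (difference -1.29, SE 0.307, adjusted p = 0.127) and 0.53 above ES cells (SE 0.307, adjusted p of 1). With the lines scaled to 1 spread, H3K27me3 at Tdh was called lower in iPS cells than in MEFs (-1.15, adjusted p = 0.00249), in a fit that called 2827 promoters.

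The probe nearest upstream of the Tdh start shows both marks in 55 bases at chr14:58373161-58373215, centred at -115 bp from the start. It is printed as on the array, whose strand is not stated, with its 3 CpG sites in capitals.
Tdh probe: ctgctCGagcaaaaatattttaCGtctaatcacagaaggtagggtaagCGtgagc
On this probe H3K4me3 read 2.82 and 3.52 in the ES lines, -0.33 and -0.01 in the MEF lines and 3.27 in the iPS line. H3K27me3 read 0.07 and -0.70 in the ES lines, 2.49 and 3.02 in the MEF lines and 1.23 in the iPS line. The exchange extended past the window. Over the 6 probes more than 1000 bp inside the gene, H3K4me3 averaged 1.86 and 2.80 in ES lines, -0.54 and -0.34 in MEF lines and 2.68 in iPS cells, and H3K27me3 0.05 and -0.12, 1.70 and 2.14, and 0.86. A pair of upstream probes, at -3974 and -4098 bp, also carried H3K4me3 in ES and iPS cells. On the farther one it read 1.5 and 1.67 in ES lines and 1.78 in iPS cells against -0.85 and -1.0 in MEF lines.

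**Figure D3:**
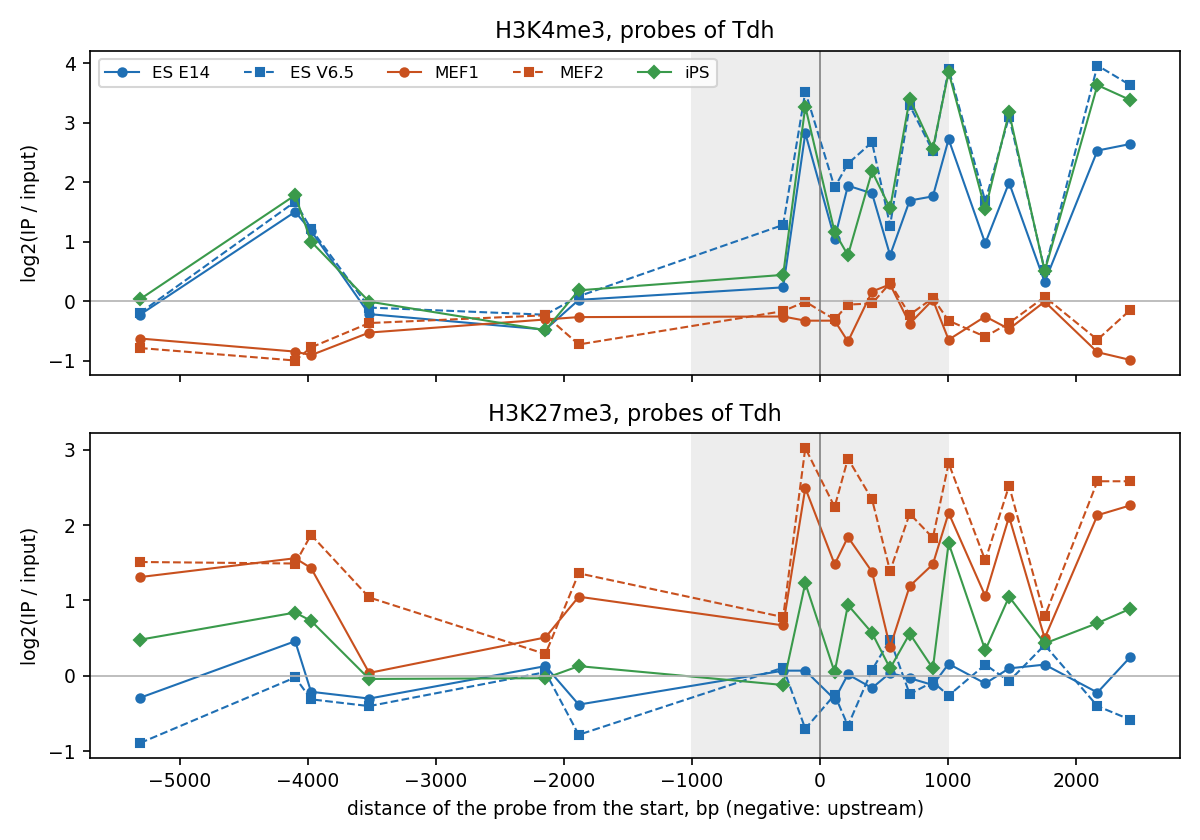
Log2 ratio of precipitate over input on each of the 20 Tdh probes against the distance from the start (0), H3K4me3 above and H3K27me3 below, 1 line per cell line, with the 1000 bp window shaded. In H3K4me3 the ES and iPS lines rise at the start and inside the gene while the MEF lines stay between -1.0 and 0.3, and in H3K27me3 the MEF lines lie above the ES lines on most probes, with the iPS line mostly between them.

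Slc2a3 differed from Tdh in that MEFs kept H3K4me3 at its start. The start lies at chr6:122779339 on the minus strand. Its 11 probes averaged 2.06 (E14) and 2.60 (V6.5) for H3K4me3 in ES lines, 1.73 (MEF1) and 1.89 (MEF2) in MEF lines, and 2.30 in the iPS line. The MEF lines lay below the others without overlap, and the difference of -0.52 did not pass (95% interval -1.06 to 0.02, limma adjusted p = 0.346) unless the lines were scaled to 1 spread (-0.87, adjusted p = 0.0019), where 4288 of 15117 promoters were called. H3K27me3 averaged -0.15 and -0.08 in ES lines, 0.83 and 1.05 in MEF lines and 0.13 in the iPS line. That gain of 1.06 was called (SE 0.131, adjusted p = 0.0254). Without V6.5, MEF1 or MEF2 adjusted p was 0.0564, 0.0613 and 0.146 at differences of 1.09, 1.16 and 0.95. The iPS line lay 0.81 below MEFs (difference -0.81, SE 0.161, adjusted p = 0.108), a difference that was called with scaled lines (-0.75, adjusted p = 0.00782).

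Upstream of Slc2a3 the picture was closer to that of Tdh. Over the 7 probes 1000 to 3000 bp upstream, H3K4me3 averaged 1.44 and 1.33 in ES lines, 0.07 and 0.10 in MEF lines and 1.49 in iPS cells. H3K27me3 there averaged -0.03 and -0.05, 1.33 and 1.26, and 0.49. The 7 probes more than 1000 bp inside the gene also had less H3K4me3 in MEFs. The mark averaged 2.24 and 2.97 in ES lines, 1.23 and 0.78 in MEF lines and 2.77 in iPS cells. H3K27me3 inside the gene averaged -0.32 and -0.37, -0.03 and 0.11, and -0.07. These zones were chosen after the profile was seen and carry no test. A pair of promoter probes, picked by their readings in MEF1, illustrates the contrast and is no test of it. One is the promoter probe of the window with the highest H3K4me3 in MEF1, where MEFs held both marks. The other is the probe 1000 to 3000 bp upstream with the highest H3K27me3 in MEF1, where MEFs held that mark without H3K4me3. Capitals would mark CpG sites, and these probes have 0.
Slc2a3 probe at -524 bp, chr6:122779840-122779887: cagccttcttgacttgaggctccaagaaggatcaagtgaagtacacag
Slc2a3 probe at -2596 bp, chr6:122781907-122781963: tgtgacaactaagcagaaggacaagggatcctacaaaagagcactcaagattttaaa
On the nearer probe H3K4me3 read 2.67 and 2.98 in ES lines, 1.97 and 2.17 in MEF lines and 2.68 in iPS cells, and H3K27me3 -0.29 and 0.04, 1.59 and 1.77, and 0.49. On the farther probe H3K4me3 read 1.81 and 1.55, -0.14 and 0.12, and 1.99, and H3K27me3 -0.06 and -0.01, 1.77 and 1.62, and 0.59. MEF2 was the line in which 1 of the 9 promoters, that of Slc2a3, reached 1 for both marks, as did 1.69% of all promoters in that line.

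**Figure D4:**
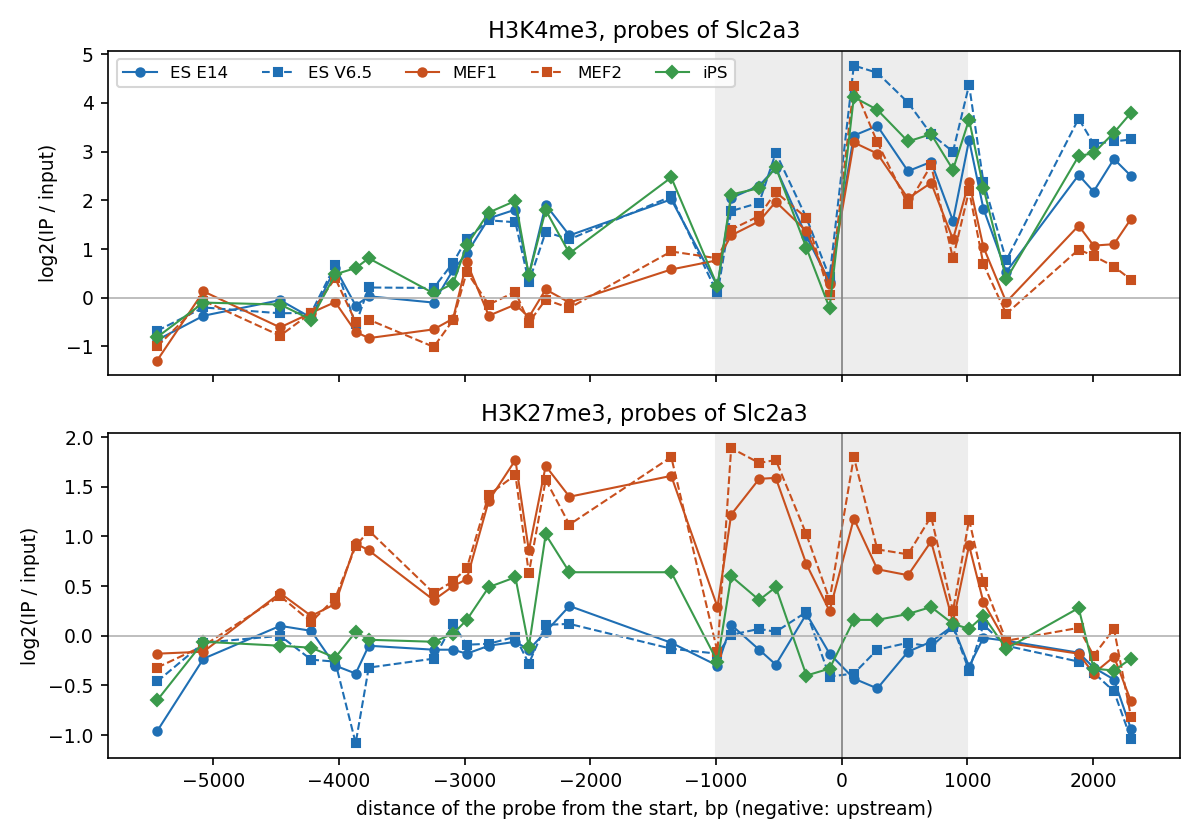
Log2 ratio of precipitate over input on each of the 34 Slc2a3 probes against the distance from the start (0), H3K4me3 above and H3K27me3 below, 1 line per cell line, with the 1000 bp window shaded. Near the start the MEF lines carry H3K4me3 a little below the other lines, 1000 to 3000 bp upstream they average 0.07 and 0.10, and their H3K27me3 exceeds that of the ES lines on every probe there. More than 1000 bp inside the gene the H3K4me3 of the MEF lines averages 1.23 and 0.78.

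At the remaining 7 promoters no H3K4me3 difference between MEFs and ES cells was called. Under other settings 3 of them passed: Pfkp with scaled lines (-0.43, limma adjusted p = 0.0339), and Ldha (1.13, adjusted p = 0.0421) and Slc2a1 (0.49, adjusted p = 0.0422) with normexp. Gcat read 0.59 and 0.99 in ES lines, 0.56 and 0.82 in MEF lines and 0.73 in iPS cells. Shmt2 read 1.99 and 2.38, 2.00 and 2.37, and 2.39. These groups overlapped, and the limma differences between MEFs and ES cells were -0.10 (95% interval -0.62 to 0.42) and 0 (-0.53 to 0.54).

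Slc2a1, whose RNA fell 7.54-fold, read 1.42 and 1.64 in ES lines, 1.59 and 1.57 in MEF lines and 1.08 in iPS cells. Hk2, whose RNA fell 16.9-fold, read 1.72 and 2.49, 1.87 and 2.61, and 2.04. Pfkp read 1.71 and 2.43, 1.74 and 2.24, and 2.29, and Pkm 1.41 and 1.80, 1.38 and 1.80, and 1.80. All 4 overlapped between ES and MEF lines, with differences of 0.05, 0.13, -0.08 and -0.01. V6.5 read above E14 at these 4 promoters, and MEF2 read above MEF1 at 3 of them, so the lines of a cell type were themselves apart.

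Ldha carried the mark at 2.65 and 2.98 in ES lines, 2.83 and 3.67 in MEF lines and 3.06 in iPS cells. H3K27me3 at Ldha was 0.04 in E14 but 1.00 in V6.5, against -0.45 and -0.59 in MEF lines and -0.23 in iPS cells. The difference of -1.04 between MEFs and ES cells did not pass (SE 0.322, limma adjusted p = 0.101), and it varied with the ES line: it was -1.52 without E14 (adjusted p = 0.0191) and -0.56 without V6.5 (0.0929). It passed with scaled lines (-0.94, adjusted p = 0.0202) and with normexp (-0.47, adjusted p = 0.0464). Pfkp read 0.24 and 0.13 in ES lines, -0.23 and -0.41 in MEF lines and -0.01 in iPS cells for H3K27me3, a difference of -0.50 (adjusted p = 0.0658) that passed with a window of 2000 bp (-0.58, adjusted p = 0.0308) and with scaled lines (-0.52, adjusted p = 0.0107). H3K27me3 at Gcat, Shmt2, Slc2a1, Hk2 and Pkm lay between -0.41 and 0.61 in all lines.

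**Figure D5:**
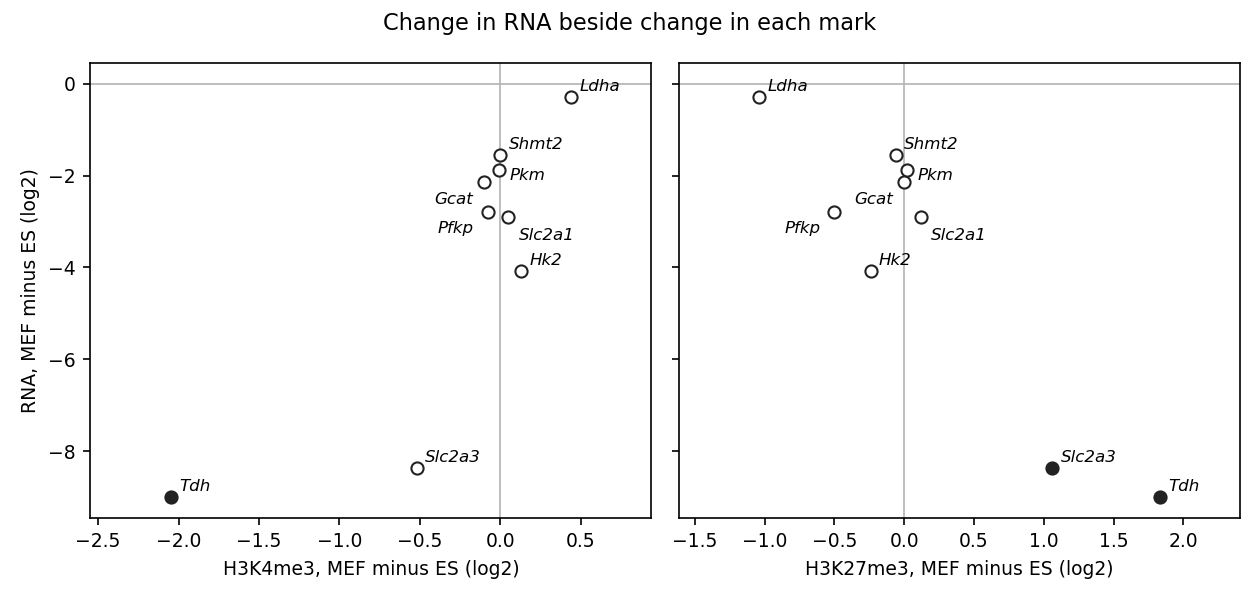
Log2 difference of MEFs from ES cells in RNA (vertical axis) beside that in H3K4me3 (left) and H3K27me3 (right) for the 9 genes with both readouts. Filled points are called for the mark: Tdh for both and Slc2a3 for H3K27me3. Shmt2, Pkm, Gcat, Pfkp, Slc2a1 and Hk2 lie lower in RNA by 1.56 to 4.08 with H3K4me3 differences between -0.10 and 0.13.

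Set side by side, Tdh and Slc2a3, with RNA folds of at least 512 and of 330, were the genes with called chromatin changes, and 6 genes with RNA 2.95 to 16.9 times lower had no called change in either mark, although Pfkp and Slc2a1 passed under the other settings named above. This is a count over 9 genes in different cultures: the RNA came from V6.5 and female MEFs, the marks from 2 lines of each type. Over all promoters 5.13% were called for H3K4me3 and 12.3% for H3K27me3. No call at the 6 genes is thus near the background and no result about them. The share called among all genes with less RNA in MEFs was not counted. Between iPS and ES cells limma called 0 of 9 promoters for H3K4me3 and 0 for H3K27me3 (0% of all promoters each), with 0 of the 9 at an unadjusted p under 0.05 for each mark. Between iPS cells and MEFs it called H3K4me3 at 1, Tdh, which was higher (0.992% of all promoters, 0.516% higher and 0.476% lower), and H3K27me3 at 0 (0% of all promoters). For the latter, 3 of 9 had an unadjusted p under 0.05 in limma. Tdh (-1.29) and Slc2a3 (-0.81) were lower in iPS cells, and Hk2 (0.55) was higher. The share of all promoters under that p was not counted. Hk2 was also called with scaled lines, again as higher (0.55).

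RefSeq promoters (GRCm38.p6) were found for 8 of the 10 genes, all but Tdh and Slc2a3, and the 250 bases before each start were searched on both strands. The motifs were CACGTG, the E-box of MYC-type factors, and ACGTG, the core of the hypoxia response element, whose letters lie within the E-box. Further motifs were GGGCGG for the GC box and CCAAT for the box of that name, together with TATAAA for the core promoter element. The last was ATGCAAA, part of the octamer. The letters of the core promoter element and of the octamer part were found in none of them, against 12.4% and 4.1% of all promoters. GC boxes were present upstream of Slc2a1, Hk2, Pfkp, Gcat and a start each of Ldha and Pkm, as in 32.7% of all 32851 promoters. Hk2 and the upstream start of Ldha are shown because they hold the most CpG sites and ACGTG matches of the 8 genes, with matches in capitals. Each has 25 CpG sites, against a median of 6 over all promoters. The downstream Ldha start has 9 and Shmt2 has 7, both with no match to any of the motifs. Neither Hk1 start held a match either.
Hk2, chr6:82774455-82774704, minus strand: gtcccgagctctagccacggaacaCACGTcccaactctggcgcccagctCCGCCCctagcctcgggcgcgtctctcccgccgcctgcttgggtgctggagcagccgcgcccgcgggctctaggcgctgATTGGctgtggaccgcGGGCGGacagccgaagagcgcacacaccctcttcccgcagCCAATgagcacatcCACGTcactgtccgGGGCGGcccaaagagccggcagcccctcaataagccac
Ldha, chr7:46845554-46845803, plus strand: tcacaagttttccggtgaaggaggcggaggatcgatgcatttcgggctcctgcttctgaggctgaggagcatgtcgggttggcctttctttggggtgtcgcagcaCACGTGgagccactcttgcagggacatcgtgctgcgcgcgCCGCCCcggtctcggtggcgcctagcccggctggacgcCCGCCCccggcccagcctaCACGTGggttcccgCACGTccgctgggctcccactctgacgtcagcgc
The upstream Ldha start has an E-box match at each of the positions -145 and -48 and a further ACGTG at -34, counted from the start. E-box letters occur in 6.0% of all promoters and ACGTG in 16.6%. Hk2 has ACGTG matches at -226 and -52. ACGTG also lay upstream of Slc2a1 (-36), Gcat (-235) and the downstream Pkm start (-75). CCAAT letters were present upstream of Hk2, Pfkp and the upstream Pkm start, and in 33.8% of all promoters. A match describes letters and is not evidence of binding.

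Array probes lying whole within these RefSeq windows place the starts used here. The start of the arrays lay 51 bp downstream of that of RefSeq for Gcat and 47 bp for Shmt2, and upstream for Hk2 (-112 bp). For Ldha it lay 1344 bp downstream of the upstream RefSeq start and 66 bp downstream of the other one. H3K4me3 on the probe at -198 bp from the upstream Ldha start read 0.86 and 1.90 in ES lines, 0.49 and 1.16 in MEF lines and 0.84 in iPS cells. The probe at -8 bp read -0.31 and -0.26, -0.30 and -0.66, and -0.40. The window described above lies around the downstream start, not the sequence printed for Ldha.

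Around these genes, 54 of 60 listed genes of glycolysis, pyruvate entry to mitochondria, serine, glycine and one-carbon metabolism and S-adenosylmethionine were tested for RNA. In MEFs against ES cells 14 were lower and 2 higher (median -0.64, against -0.12 over all genes), and 17.9% of all genes were called lower and 15.9% higher. Of the serine, glycine and one-carbon list 5 of 16 fell and 0 rose, and of the S-adenosylmethionine list 3 of 5 fell. Gldc was 244-fold lower (adjusted p = 0.00154), Shmt1, the cytosolic partner of Shmt2, 23.4-fold (adjusted p = 0.00253) and Mthfd1, which carries folate one-carbon units, 10.8-fold (adjusted p = 0.00162). For Gldc and Shmt1 the first MEF array was not well above background.

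Of the other glycolysis list 4 of 21 fell and 1 rose, near the share of 17.9% called lower over all genes. The gene that rose was Hk3, a hexokinase known from myeloid cells, which was at least 9.35-fold higher in MEFs and not well above background in ES and iPS cells. It stands beside the macrophage and blood list, whose sum was led by Lyz2 (6.62 and 5.77 in MEFs, -0.36 and -0.53 in ES cells). Csf1r read 0.11 and 0.39 in MEFs and -4.41 and -4.88 in ES cells, while Cd68 overlapped between these groups and Laptm5 was lower in MEFs (-1.36 and -0.89 against 0.22 and 0.83). Their part in the level of Hk3 was not tested. Pdp1, the phosphatase that activates pyruvate dehydrogenase, was 3.12-fold higher (adjusted p = 0.0416). In iPS cells against MEFs, 17 of the 54 were higher and 6 lower, where 18.3% and 17% of all genes were called. Pfkfb1, which makes and degrades an activator of phosphofructokinase, was 9.11-fold higher, and Eno3, the muscle enolase, and Srr, serine racemase, were 7.28-fold and 4.56-fold lower. Against ES cells limma called 0 of the 54 in iPS cells.

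Of the 53 listed promoters tested, H3K4me3 was called lower in MEFs than in ES cells at 1 and higher at none, and H3K27me3 higher at 1 and lower at 4. Over all promoters the shares were 3.09%, 2.04%, 4.62% and 7.63%, so the counts over the list were near or below the background and are no result about it. The H3K4me3 loss was at Amt, a subunit of the glycine cleavage system, which read 1.85 and 2.52 in ES lines, -0.63 and -0.39 in MEF lines and 2.21 in iPS cells (difference -2.70, SE 0.261, limma adjusted p = 0.000601). The H3K27me3 gain was at Gldc, the catalytic subunit of the same system, at 0.20 and 0.35 in ES lines, 1.37 and 1.90 in MEF lines and 0.65 in iPS cells (1.36, SE 0.204, adjusted p = 0.0261). H3K4me3 at Gldc read 0.89 and 0.98 in ES lines and 0.78 and 0.73 in MEF lines. H3K27me3 was lower in MEFs at Srr (-1.04), at Eno2, the neuronal enolase (-1.0), and at Pfkfb2 (-0.81). In iPS cells against MEFs, H3K4me3 was called higher at Amt (2.72, adjusted p = 0.00976) and H3K27me3 at none of the 53.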

How the data were processed

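Promoter arrays (2 per line and mark, carrying different promoters) and one-colour expression arrays were deposited as scanner files and value tables made with Agilent Feature Extraction (9.1.3.1 and 9.5.1.1, per the file headers). The deposited scanner files hold background-subtracted intensity per spot, and the deposited promoter value tables the log10 ratio of red over green, equal to the scanner files. Precipitated and input DNA were amplified before labelling, per the labels' protocols, which can distort ratios. Processed signals gave log2(Cy5/Cy3), centred on the median of each array's non-control probes and averaged over at least 3 probes within 1000 bp of the start, which was placed between probes labelled promoter and inside (gap at most 1000 bp). For expression, the deposited value table of intensity was log2-transformed and set relative to the 75th percentile. A probe was kept (25346 of 41174) if both arrays of some group had it well above background, and the brightest stood for a gene. All 10 members passed.

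The scanner files filed under ES hold the MEF columns of the value table and the reverse. Both carry sample labels, so the labels cannot decide between them. The value table was followed, in which the ES markers summed higher in the ES columns than in the MEF columns. The scanner file filed under the second iPS array breaks off after 28349 complete spots and equals no column, so detection flags of that array were those of the other iPS array. A saturated bright group, or a dim group not well above background on any array, makes a fold a bound ("at least").

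Each readout was fitted in limma 3.58.1 (lmFit, eBayes) in R 4.3.3 (data.table package, version 1.17.8) over all features, with 3 residual degrees of freedom for RNA and 2 for marks, the lone iPS line being assumed to have the spread of the others. Fits were tested on simulated data. Calls needed a Benjamini-Hochberg adjusted p under 0.05 (RNA also 2-fold). Precision is limited by how few arrays there are. The members and lists were chosen with earlier results of these data known. All members are named, with the 3 nearest genes of Tdh and Slc2a3, the 3 largest called folds per direction and assay of the pathway list, and markers where a label check turns on them. Symbols came from GRCm38.p6 tables.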

Additional observations from a re-analysis of the deposited data

Results flagged for a closer look

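The partial scan filed under the second iPS array was used in no comparison, and the signal of 5 of the genes on its complete spots lay above both MEF arrays. As log2 relative to the 75th percentile of its own spots, Tdh read 6.51 (saturated), Slc2a3 6.72, Slc2a1 6.76, Hk2 4.68 and Pfkp 2.20. Hk1 read 4.00, between the MEF arrays (4.42 and 3.75). The probes that stood for Gcat, Shmt2, Pkm and Ldha were not among the complete spots. Its signals correlated with the columns of the value table at 0.982 and 0.98 for the ES arrays, 0.974 and 0.972 for the iPS arrays and 0.862 and 0.692 for the MEF arrays. Which sample it holds was not tested.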

How the results depend on the processing

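Groups held 2 arrays or lines, and the iPS cells 1 line for the marks. Among the 9 promoters, the counts called between iPS and ES cells were 0 under every setting run. Over all 15117 promoters the H3K4me3 count between these groups was not 0 with scaled lines or with an ES line left out. The other counts over the members moved under some setting. Of the 10 genes, 8 were called in RNA between MEFs and ES cells: 5 without the filter on dim probes, 5 of 8 when probes saturated on any array were left out (a choice made after seeing the data), and 4 to 9 with 1 array left out, lowest without either ES array. For iPS cells against MEFs the 8 became 4 without the filter and 3 to 8 with 1 array left out, lowest without either iPS array. For iPS cells against ES cells the 0 became 1 in a fit of these groups alone and stayed 0 with 1 array left out. With the slide (the number of the array in its group) as a replicate block the counts were 8, 7 and 0. Deviations of arrays with the same number correlated at r = -0.006 (ES and MEF), -0.126 (ES and iPS) and 0.105 (MEF and iPS). With 2 arrays per group these values are the same for either number. They cannot decide whether the numbers pair the samples. For the marks no paired analysis was possible because ES and MEF lines share no numbers.

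Taking the scanner files as filed swaps ES cells and MEFs and also drops the second iPS array. With both changes limma called 0 members for iPS cells against MEFs and 3 for iPS cells against ES cells. MEF minus ES then became 9.0 for Tdh, 2.13 for Gcat, 1.56 for Shmt2, 2.91 for Slc2a1, 8.37 for Slc2a3, 4.08 for Hk2, 2.79 for Pfkp and 1.87 for Pkm. iPS minus MEF became -0.81 for Tdh, -0.29 for Shmt2, -0.72 for Slc2a1, -1.13 for Hk2, -0.45 for Pfkp and -0.03 for Pkm, and iPS minus ES 8.19 for Tdh and 2.95 for Hk2.

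For H3K4me3 the 1 promoter called between MEFs and ES cells became 3 with scaled lines and 3 with normexp, and stayed 1 with any line left out. For iPS cells against MEFs the 1 became 5 with scaled lines, 2 with normexp, 0 with the median over probes, 0 with a window of 500 bp and 0 to 1 with a line left out. Normexp turned Shmt2 to -0.87 there, and the cause was not tested. For H3K27me3 the 2 promoters called between MEFs and ES cells became 4 with scaled lines and 0 to 3 with a line left out, and the 0 for iPS cells against MEFs became 3 with scaled lines.

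Over all features the counts of calls moved too. In RNA between MEFs and ES cells 5805 genes became 3213 without the filter and 2493 to 9785 with 1 array left out, and 6068 for iPS cells against MEFs became 3756 and 2634 to 9796. The 33 genes between iPS and ES cells became 2852 in a fit of these groups alone and 240 with the slide block. That count also moved with normexp, in a fit that lacked the second iPS array as well. For H3K27me3 between MEFs and ES cells 1853 promoters became 5049 with scaled lines, 3006 with a window of 2000 bp, 895 with 500 bp and 1009 with the median. For H3K4me3 the 776 became 4288 with scaled lines, 3324 with normexp, 367 with the median and 275 to 876 with a line left out, and the 150 for iPS cells against MEFs became 2749, 1393, 0 and 37 to 107.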
